A study of Mus musculus with 6 samples.

Results

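The genes described here are 10 members of the lipid and iron arms of ferroptosis, taken by symbol from the 20327 gene symbols counted in each library: *Acsl1*, *Acsl3*, *Acsl4*, *Acsl5*, *Lpcat3*, *Gpx4*, *Tfrc*, *Fth1*, *Ftl1* and *Slc40a1*. Their expression was compared between IL-11+ and IL-11- fibroblasts of the inflamed mouse colon. Cells were isolated from colons of C57BL/6 mice of the genotype *Il11-Egfp*, aged 9 to 15 weeks, in which *Egfp* is read from an *Il11* gene on a bacterial artificial chromosome. All mice had received 1.5% DSS (dextran sulfate sodium, which injures the colon epithelium) for 5 days, and cells were sorted on day 7. Both groups carried the reporter, had the same DSS exposure and came from the DAPI-negative Ter119-CD45-CD31-EpCAM- fraction, and were separated by EGFP. EGFP-Positive cells are called IL-11+ and EGFP-Negative cells IL-11- (n = 3 libraries per group, from 3 mice). No group without DSS was used here.

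Ferroptosis is a form of cell death driven by iron-dependent peroxidation of membrane phospholipids that hold polyunsaturated fatty acids. ACSL4 activates arachidonic and related acids to acyl-CoA, LPCAT3 inserts them into phospholipids, and GPX4 reduces the lipid peroxides with glutathione. Iron enters cells through the transferrin receptor, is stored in ferritin and leaves through ferroportin, and the same enzymes serve ordinary lipid and iron turnover in fibroblasts and in the gut.

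RNA was measured by 5′Tag-seq, in which tags from the 5′ side of polyA RNA are counted per gene. In the order of replicates 1, 2 and 3, which is kept below, the IL-11- libraries held 1057170, 1078179 and 1169817 tags and the IL-11+ libraries 1046538, 1022851 and 1049048. Values below are tags as counted, or normalized CPM (tags scaled to a common library size with TMM factors), with the mean ± SD over libraries. *Il11* itself, the check of the sort, had 28, 51 and 89 tags in the IL-11- libraries and 1357, 732 and 2658 in the IL-11+ libraries. Every IL-11+ library lay above every IL-11- library.

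The labelled cell type was checked against marker genes. All 10 fibroblast markers were tested, with at least 59 tags in every library. Their summed level was 22830, 22910 and 25270 normalized CPM in the IL-11- libraries and 43100, 34860 and 30930 in the IL-11+ libraries, with *Dcn* as the most abundant gene. Of these markers, 2 of 10 were called higher in IL-11+ fibroblasts. *Lum* and *Vim* had log2 fold changes the other way, -0.64 and -0.27, and were not called (edgeR adjusted p = 0.0378 and 0.384, Benjamini-Hochberg). *Epcam*, *Ptprc* and *Pecam1*, the genes of surface proteins used to remove epithelial, blood and endothelial cells, had at most 7 tags in any library. Epithelial, leukocyte, macrophage and mesothelial markers summed to at most 59.1, 22.6, 33.9 and 22.2 normalized CPM. Smooth muscle markers were another matter. Their sum was 2242, 2734 and 3466 normalized CPM in the IL-11- libraries against 90.1, 153 and 308 in the IL-11+ libraries, led by *Myh11*, and 7 of 7 were called lower. Pericyte markers summed to 2632, 2242 and 2031 against 1068, 894.5 and 794, led by *Rgs5*, with 3 of 6 tested genes lower. In this list *Kcnj8* and *Abcc9* had log2 fold changes of 0.71 and 0.66, the other way and below 2-fold (edgeR adjusted p = 0.0394 and 0.0167, Benjamini-Hochberg). Markers of interstitial cells of Cajal, led by *Ano1*, summed to 271, 168 and 258 against 21.2, 20.3 and 50.5 (3 of 3 lower). The cells labelled EGFP-Negative thus carried smooth muscle transcripts, and more tags of some pericyte markers, beside those of fibroblasts, and their part in the differences below was not tested. The same holds for mitochondrial transcripts, which took 8.94%, 9.45% and 7.31% of tags in the IL-11- libraries and 5.04%, 4.67% and 4.43% in the IL-11+ libraries, and for ribosomal RNA, with 5.39%, 5.51% and 6.24% against 6.83%, 6.57% and 6.47%. In such bulk samples, fewer cells of a type and less RNA per cell cannot be told apart.

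Of the 10 genes, *Acsl4* was the single one called changed between the groups. It was 4.78-fold higher in IL-11+ fibroblasts. *Fth1* was 1.82-fold higher with a small adjusted p, below the 2-fold threshold. For *Gpx4* and *Ftl1* the 95% interval of the log2 fold change lay within 0.55 of 0. All 10 passed the filter on low values (at least 10 tags in at least 3 libraries), *Acsl1* only through the IL-11+ libraries. A call required more than 2-fold change at an adjusted p under 0.05. In the edgeR quasi-likelihood test 1 of 10 was called higher and 0 lower, beside 3.44% higher and 6.37% lower of all 9334 tested genes. DESeq2 also called 1 higher and 0 lower, and at an unadjusted p under 0.05 there were 3 higher and 0 lower, beside 12.2% higher and 14.5% lower of all tested genes at that threshold. These 3 included *Acsl1*, which was tested only through the group where it was higher, so nothing is read from their number. For 4 of the 10 genes, no IL-11+ library lay within the range of the IL-11- libraries, all higher in IL-11+ fibroblasts, beside 14.5% of tested genes higher and 16.7% lower without overlap. These genes were *Acsl1*, *Acsl4*, *Lpcat3* and *Fth1*. *Acsl1* was tested only through the group where it was higher. The nearest libraries of *Lpcat3* lay at 29.56 (IL-11-) and 29.563 (IL-11+) normalized CPM, so nothing is read from this number of genes. The median log2 fold change of the 10 genes was 0.309 and that of all tested genes -0.0118.

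**Figure D1:**
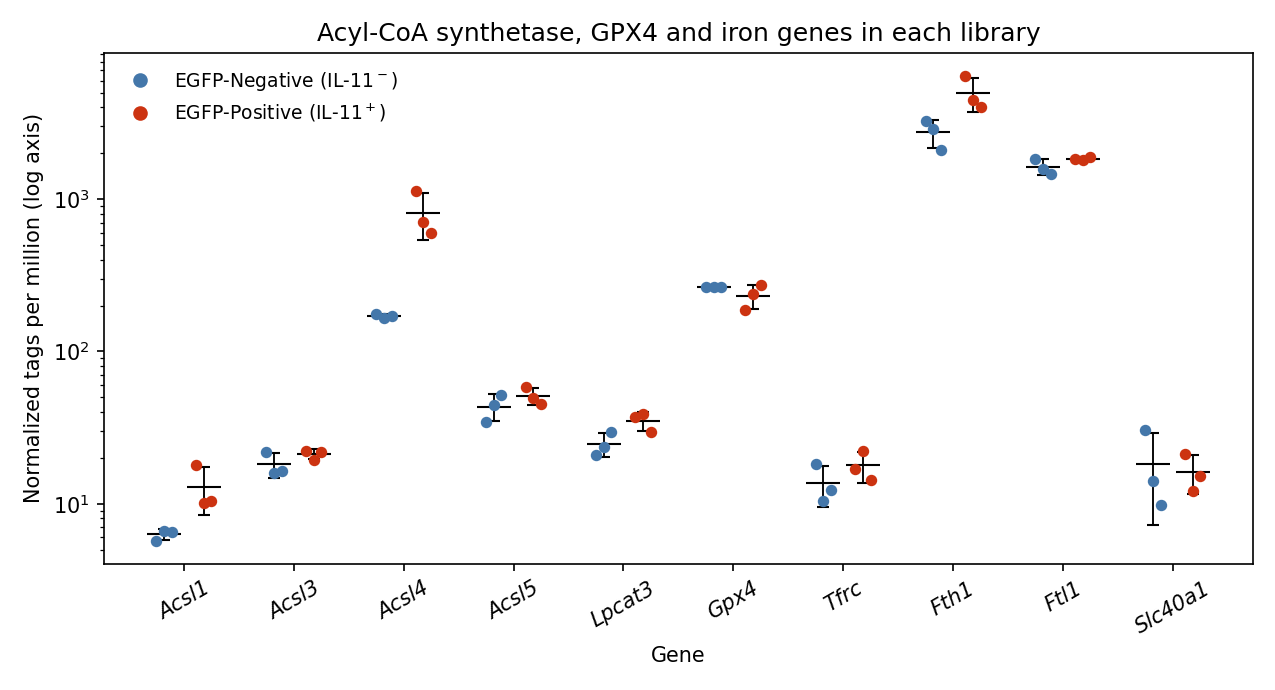
Normalized CPM (log axis) of the 10 genes in each library, blue for EGFP-Negative and red for EGFP-Positive, with black lines for the mean and SD of 3 libraries. The red points of *Acsl4* and *Fth1* lie above all blue points of the same gene, and the points of *Gpx4*, *Tfrc* and *Slc40a1* overlap between groups.

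*Acsl4* (chromosome X, 142317993 to 142390535, minus strand, GRCm38) encodes the acyl-CoA synthetase with a preference for arachidonic acid. Its tags numbered 183, 176 and 208 in the IL-11- libraries and 1068, 701 and 632 in the IL-11+ libraries. All 3 IL-11+ libraries were far above all IL-11- libraries, and the IL-11- libraries were close to each other. Normalized levels were 170 ± 4.46 and 815.5 ± 279 CPM (SD, n = 3), which is 2.26 on the log2 scale (SE 0.214, 95% interval 1.81 to 2.71, adjusted p = 6.23e-07, edgeR quasi-likelihood test, Benjamini-Hochberg). The difference was larger than the spread between replicates. It was widest in replicate 1, where the normalized level in IL-11+ cells was 6.48 times that in IL-11- cells, against 4.29 and 3.53 times in replicates 2 and 3. Leaving out each library in turn gave log2 fold changes from 1.96 to 2.44, all called.

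The other long-chain acyl-CoA synthetases had far fewer tags. *Acsl1* (chromosome 8, 46471037 to 46536051), which serves fatty acid oxidation and triglyceride synthesis, had 6, 7 and 8 tags in the IL-11- libraries and 17, 10 and 11 in the IL-11+ libraries. The groups did not overlap, at tag numbers near the filter of 10. Its log2 fold change was 1.01 (SE 0.427, adjusted p = 0.13, edgeR quasi-likelihood test, Benjamini-Hochberg), so the difference did not hold up. *Acsl3* (chromosome 1, 78657825 to 78707743), which acts at lipid droplets, had 17 to 23 tags in the IL-11- libraries and 19 to 23 in the IL-11+ libraries. *Acsl5* (chromosome 19, 55251938 to 55297720), best known from the intestinal epithelium and liver, had 36 to 63 and 47 to 55 tags. Both genes overlapped between the groups, with log2 fold changes of 0.23 (SE 0.299) for *Acsl3* and 0.22 (SE 0.226) for *Acsl5*. Their 95% intervals, -0.40 to 0.85 and -0.25 to 0.69, left out a change of the size seen for *Acsl4*.

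Within a library, the share of *Acsl4* in the summed tags of the 4 synthetase genes needs no scaling between libraries. It was 73.8%, 71.3% and 69.6% in the IL-11- libraries and 92.0%, 90.0% and 88.6% in the IL-11+ libraries. *Acsl4* took the greater share in all 6 libraries, and the groups did not overlap. With 95% Wilson intervals, the highest IL-11- library reached 78.9% and the lowest IL-11+ library went down to 86.1%. Such intervals cover no more than counting error, and understate it where PCR copies of the same molecule were counted as separate tags. The mean share was 71.5 ± 2.13% against 90.2 ± 1.69% (SD, n = 3), a difference of 18.7 percentage points (two-sided exact permutation p = 0.1, the smallest that 3 against 3 libraries allow). The size of this difference depends on the genes in the sum, and with *Acsl3* and *Acsl4* only it was 6.89 percentage points. These are shares of tags, which were not divided by transcript length.

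**Figure D2:**
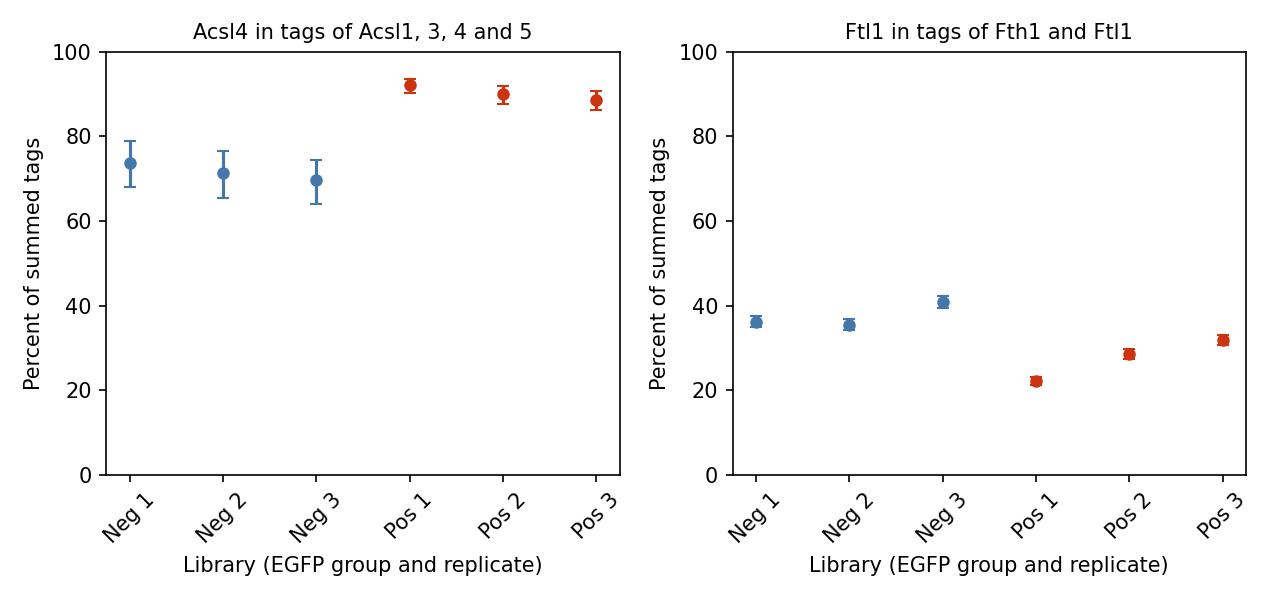
Share of *Acsl4* in the tags of *Acsl1*, *Acsl3*, *Acsl4* and *Acsl5* (left) and of *Ftl1* in the tags of *Fth1* and *Ftl1* (right), in percent of the summed tags of each library, with 95% Wilson intervals as bars, blue for EGFP-Negative and red for EGFP-Positive. The share of *Acsl4* is above 86.1% in every red library and below 78.9% in every blue library, and the share of *Ftl1* is lower in the red libraries than in the blue.

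The 5 genes with a pattern over the 6 libraries most like that of *Acsl4*, among 5063 genes that averaged 30 tags or more, were *Tnc*, *Serpina3f*, *Cox6b2*, *Lrrk2* and *Glrx*. Likeness was the root mean square difference of centred log2 CPM, which was 0.151 for *Tnc* and 0.192, 0.193, 0.213 and 0.223 for the others. *Tnc*, which encodes the matrix protein tenascin C, had 683, 587 and 647 tags in the IL-11- libraries and 4064, 2051 and 1865 in the IL-11+ libraries. As for *Acsl4*, IL-11+ replicate 1 was the highest library.

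*Lpcat3* (chromosome 6, 124663027 to 124704418), the acyltransferase that places polyunsaturated chains into lysophospholipids, had 22, 25 and 36 tags in the IL-11- libraries and 35, 38 and 31 in the IL-11+ libraries. After normalization the groups lay just apart, with 24.7 ± 4.39 and 35.1 ± 4.84 CPM (SD, n = 3). At 0.49 on the log2 scale (SE 0.261, 95% interval -0.05 to 1.04) it was not called, and the edgeR adjusted p with Benjamini-Hochberg adjustment was 0.242. At this depth the interval ran from no change to about 2-fold.

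*Gpx4* (chromosome 10, 80047166 to 80056439), the selenoprotein that reduces phospholipid peroxides, had 279, 281 and 320 tags in the IL-11- libraries and 176, 233 and 284 in the IL-11+ libraries. The IL-11- libraries were nearly level after normalization (265 ± 1.82 CPM), whereas the IL-11+ libraries were spread (231 ± 42.4 CPM) and reached above them in replicate 3. The log2 fold change was -0.19 (SE 0.17, adjusted p = 0.521, edgeR quasi-likelihood test, Benjamini-Hochberg), with a 95% interval of -0.55 to 0.16. The ratio of IL-11+ to IL-11- levels was 0.70, 0.894 and 1.03 in replicates 1, 2 and 3. Of the 50-nt windows in the first 300 nt of its transcripts, 27% also occur in *Gpx4-ps2*, which is not among the counted symbols used here, so tags of either could be counted under *Gpx4*.

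Iron uptake and export genes were thinly covered. *Tfrc* (chromosome 16, 32608920 to 32632794), the transferrin receptor, had 19, 11 and 15 tags in the IL-11- libraries and 16, 22 and 15 in the IL-11+ libraries. *Slc40a1* (chromosome 1, 45908068 to 45926523), which encodes the iron exporter ferroportin, had 32, 15 and 12 against 20, 12 and 16. In both genes the groups overlapped, and for *Slc40a1* the highest library was IL-11- replicate 1. Log2 fold changes were 0.39 (SE 0.35) for *Tfrc* and -0.15 (SE 0.401) for *Slc40a1*. In the edgeR quasi-likelihood test with Benjamini-Hochberg adjustment, adjusted p was 0.525 and 0.863. The 95% interval for *Tfrc*, -0.34 to 1.13, and that for *Slc40a1*, -0.99 to 0.69, allowed changes of close to 2-fold. The sign for *Slc40a1* rested on single libraries, with 0.42 without IL-11- replicate 1 and 0.02 without IL-11+ replicate 2. The genes with a pattern nearest to that of *Slc40a1* were *Cir1*, *Ctr9*, *A630089N07Rik*, *Scara5* and *Smad4*, with root mean square differences from 0.153 to 0.225.

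Ferritin is built from a heavy and a light chain. *Fth1* (chromosome 19, 9980598 to 9985098), which encodes the heavy chain that oxidizes iron for storage, had 3391, 3049 and 2566 tags in the IL-11- libraries and 6046, 4435 and 4236 in the IL-11+ libraries. Every IL-11+ library was above every IL-11- library. Normalized levels were 2739 ± 577 and 4984 ± 1255 CPM (SD, n = 3), and the log2 fold change was 0.86 (SE 0.21, 95% interval 0.42 to 1.30, adjusted p = 0.00762, edgeR quasi-likelihood test, Benjamini-Hochberg). The difference was thus larger than the spread between replicates, while its fold change of 1.82 stayed below the threshold of 2. Within replicates 1, 2 and 3 the ratio was 1.98, 1.57 and 1.92. Without IL-11- replicate 2 the adjusted p was 0.0537 at a log2 fold change of 0.89, and over all alternatives it ranged from 1.21e-06 to 0.0537.

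*Ftl1* (chromosome 7, 45457944 to 45459884, minus strand), which encodes the light chain that aids formation of the iron core, had 1925, 1682 and 1777 tags in the IL-11- libraries and 1732, 1777 and 1985 in the IL-11+ libraries. The groups overlapped. Its log2 fold change was 0.18 (SE 0.166, adjusted p = 0.538, edgeR quasi-likelihood test, Benjamini-Hochberg), with a 95% interval of -0.17 to 0.53. Of its 5′ windows 67.8% also occur in 9 other annotated genes, *Ftl1-ps1* and *Ftl1-ps2* among them, against 1.88% for *Fth1*. None of these 9 is among the counted symbols used here, so tags of any of them could be counted under *Ftl1*. *Ftl1* took 36.2%, 35.6% and 40.9% of ferritin tags in the IL-11- libraries and 22.3%, 28.6% and 31.9% in the IL-11+ libraries. The groups did not overlap in this share, with means of 37.6 ± 2.93% and 27.6 ± 4.90% (SD, n = 3), a difference of -9.97 percentage points (two-sided exact permutation p = 0.1, the smallest possible). *Fth1* and *Ftl1* together made up 0.503%, 0.439% and 0.371% of all tags in the IL-11- libraries and 0.743%, 0.607% and 0.593% in the IL-11+ libraries.

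Translation or stability of several of these mRNAs is set by iron regulatory proteins, which bind a hairpin called the iron-responsive element. In the 5′ UTR it blocks translation, and in the 3′ UTR of *Tfrc* it protects the mRNA, so tag counts read only part of this control. The UTRs were searched for a C, then 5 bases, the loop CAGTGN and 5 bases that pair with the first 5, on the transcribed strand. Of the 10 genes 4 held such letters, among them both ferritin genes. Sites are shown as a sequence feature of the iron genes, with the 6 bases of the loop in capitals (GENCODE annotation of GRCm38). These genes are known for this element, so finding its letters in them was no test. Those in 5′ UTRs were at chr19:9982732-9982760 (plus strand) in *Fth1*, chr7:45459779-45459807 (minus strand) in *Ftl1* and chr1:45925465-45925493 (minus strand) in *Slc40a1*.
Fth1: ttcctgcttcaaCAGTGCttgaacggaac
Ftl1: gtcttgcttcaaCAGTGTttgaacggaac
Slc40a1: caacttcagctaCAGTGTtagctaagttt

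The 3′ UTR of *Tfrc* held 4 sites on the plus strand, at chr16:32631219-32631247, chr16:32631598-32631626, chr16:32631663-32631691 and chr16:32631710-32631738, in this order.
Tfrc site 1: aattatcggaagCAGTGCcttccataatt
Tfrc site 2: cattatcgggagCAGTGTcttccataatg
Tfrc site 3: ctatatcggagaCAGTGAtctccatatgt
Tfrc site 4: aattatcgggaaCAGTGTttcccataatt

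The same letters were in the 5′ UTR of 21 of 8789 tested genes (0.239%), of which 1 was called higher and 1 lower in IL-11+ fibroblasts. In 3′ UTRs they were in 75 of 8822 tested genes (0.85%), of which 6 were called lower and 69 were not called. Over all tested genes 3.44% were called higher and 6.37% lower. *Ano1* and *Synpo2*, markers of interstitial cells of Cajal and of smooth muscle, were among the 6. A match is a description of letters and does not show binding. Among the 4 genes with sites, none was called, and *Fth1* was the one with an adjusted p under 0.05.

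Other genes of the same processes were read from 7 lists. They held 198 genes, of which 186 were in the counts and 129 were tested. In IL-11+ fibroblasts 11 were called higher (8.53%) and 8 lower (6.20%), beside 3.44% and 6.37% of all tested genes. The lists were chosen with earlier results of these data known, so nothing is read from the higher share, here or in single lists below. Of the 8 lower genes, *Cd36*, *Fabp4*, *Fabp5* and *Prkaa2* passed the filter only through the IL-11- libraries, so that nothing is read from the lower share. The lower genes numbered 3, 4 and 4 when IL-11- replicates 1, 2 and 3 were left out in turn. The filter was applied anew each time, so genes that passed only through the IL-11- libraries were then not tested. These numbers are therefore no measure of dependence on single replicates. The median log2 fold change of the 129 genes was 0.0735.

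Of 6 tested genes for fatty acid activation and uptake, 0 were called higher and 3 lower in IL-11+ fibroblasts, by edgeR as by DESeq2, and 0 were higher at an unadjusted p under 0.05. All 3 lower genes passed the filter only through the IL-11- libraries, so that their number is no measure of the list. *Fabp4*, a fatty acid carrier of fat and endothelial cells, had 136, 56 and 29 tags in the IL-11- libraries and 8, 7 and 3 in the IL-11+ libraries (log2 fold change -3.46, SE 0.554). *Cd36*, a fatty acid translocase, had 10, 15 and 11 tags against 0 in each IL-11+ library, at least 3.60-fold lower when set against a floor of 3 tags per library. *Fabp5* had 24, 16 and 11 tags against 2, 0 and 2, with 51.8% of its 5′ windows shared with other genes. Endothelial markers, led by *Plvap*, summed to 10.5, 10.4 and 11.5 normalized CPM in the IL-11- libraries and to 0, 5.08 and 4.77 in the IL-11+ libraries, and their part in these differences was not tested.

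In phospholipid remodelling and synthesis of polyunsaturated fatty acids, 2 of 22 tested genes were called higher (9.09%) and 1 lower (4.55%) by edgeR. The shares of all tested genes were 3.44% and 6.37%. DESeq2 called 1 higher and 1 lower. *Pla2g4a*, the cytosolic phospholipase that frees arachidonic acid from membranes, had 60, 45 and 48 tags in the IL-11- libraries and 140, 159 and 166 in the IL-11+ libraries. The IL-11+ libraries were all above the IL-11- libraries, and the log2 fold change was 1.75 (SE 0.187, adjusted p = 2.5e-06, edgeR quasi-likelihood test, Benjamini-Hochberg). *Mboat7*, which places arachidonic acid into phosphatidylinositol, had 16, 16 and 15 tags against 34, 31 and 23 (log2 fold change 1.06, SE 0.306), and its call was lost in 7 of 12 alternatives. *Agpat4*, an acyltransferase of phosphatidic acid synthesis, had 45, 23 and 35 against 11, 10 and 15 (log2 fold change -1.35, SE 0.335), and its edgeR adjusted p with Benjamini-Hochberg adjustment was 0.0665 without IL-11- replicate 1, against 0.00144 to 0.0665 over its alternatives.

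Of 5 tested lipid peroxidation genes none was called by edgeR or DESeq2, and at an unadjusted p under 0.05 there were 1 higher and 1 lower. The gene of this list with the most tags was *Por*, the reductase that passes electrons to cytochromes P450. It had 162, 151 and 170 tags in the IL-11- libraries and 255, 251 and 244 in the IL-11+ libraries, with a log2 fold change of 0.80 (SE 0.16), below 2-fold. *Nox4*, an NADPH oxidase, had 15, 10 and 18 tags against 4, 2 and 8 and passed the filter only through the IL-11- libraries. It was not called (log2 fold change -1.44, edgeR adjusted p = 0.0516 with Benjamini-Hochberg adjustment), but was called lower when replicate number entered the model as a block (adjusted p = 0.0337), and over its alternatives adjusted p ranged from 0.0173 to 0.184.

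Of 22 tested genes of glutathione handling and selenoproteins, 1 was called higher and 1 lower (4.55% each), beside 3.44% and 6.37% of all tested genes. *Abcc1*, an exporter of glutathione and its conjugates, had 54, 33 and 43 tags in the IL-11- libraries and 126, 83 and 91 in the IL-11+ libraries (log2 fold change 1.37, SE 0.236). *Mgst3*, a microsomal glutathione transferase, had 33, 34 and 47 against 3, 8 and 10 (log2 fold change -2.26, SE 0.357). Neither gene overlapped between the groups. *Slc7a11*, the cystine importer that feeds glutathione synthesis, had 16, 15 and 19 tags against 24, 16 and 48, and was not called at a log2 fold change of 0.96 (SE 0.355). Another list held genes that bear on lipid peroxidation apart from GPX4, whether they limit it or not, with genes of cholesterol synthesis among them. Of its 17 tested genes, 1 was called higher (5.88%) and 0 lower by edgeR, beside 3.44% and 6.37% of all tested genes. DESeq2 also called 1 higher and 0 lower, and 0 were lower at an unadjusted p under 0.05. The higher gene was *Sqle*, the squalene epoxidase of cholesterol synthesis, with 25, 22 and 27 tags against 65, 57 and 55 (log2 fold change 1.42, SE 0.234). *Aifm2*, which encodes the ubiquinone reductase FSP1, had 27, 22 and 33 tags against 13, 15 and 33, and its groups overlapped.

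Of 32 tested genes for iron uptake, storage and export, 5 were called higher (15.6%) and 0 lower by edgeR and by DESeq2. Of all 9334 tested genes, edgeR called 3.44% higher and 6.37% lower, and DESeq2 called 284 higher and 483 lower. At an unadjusted p under 0.05 there were 16 higher and 2 lower of 32, beside 12.2% and 14.5% of all tested genes. Their median log2 fold change was 0.497, and 23 of 32 were above 0. Since the list was chosen with earlier results of these data known, nothing is read from these numbers. *Cp*, ceruloplasmin, the ferroxidase that works with ferroportin, had 334, 322 and 253 tags in the IL-11- libraries and 1105, 747 and 569 in the IL-11+ libraries. The groups did not overlap, and the log2 fold change was 1.58 (SE 0.24, adjusted p = 0.000123, edgeR quasi-likelihood test, Benjamini-Hochberg). *Lcn2*, lipocalin 2, which binds iron-laden siderophores, had 179, 110 and 26 tags against 897, 683 and 253. The lowest IL-11+ library was above the highest IL-11- library, and in both groups replicate 3 was the lowest. The log2 fold change of *Lcn2* was 2.68 (SE 0.482), and the ratio within replicates 1, 2 and 3 was 5.56, 6.69 and 11.3. Leaving out single libraries gave log2 fold changes from 2.17, without IL-11- replicate 3, to 3.33, without IL-11- replicate 1. Neutrophil markers, led by *S100a8*, summed to 4.77, 6.60 and 5.75 normalized CPM in the IL-11- libraries and to 25.4, 10.2 and 12.4 in the IL-11+ libraries, and their part in the level of *Lcn2* was not tested.

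The other higher iron genes carried metal ions across membranes. *Slc39a14*, an importer of zinc and iron, had 117, 102 and 176 tags in the IL-11- libraries and 217, 299 and 232 in the IL-11+ libraries. Its log2 fold change was 1.09 (SE 0.19), and it fell just below 2-fold at 0.96 without IL-11- replicate 2 and at 0.95 without IL-11+ replicate 2. *Slc39a8*, a related importer, had 11, 11 and 13 tags against 42, 35 and 8. Its IL-11+ replicate 3 lay below all IL-11- libraries, and the call (log2 fold change 1.45, SE 0.459) was lost in 6 of 11 alternatives. *Slc25a37*, the mitochondrial iron importer, had 15, 6 and 21 tags against 44, 30 and 40 (log2 fold change 1.60, SE 0.341), but all its 5′ windows also occur in *Gm16867*, so the 2 genes cannot be told apart. *Gm16867* is counted as a symbol of its own, with 12, 9 and 8 tags against 29, 13 and 29, and was called higher too (log2 fold change 1.43, SE 0.389).

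*Hmox1*, heme oxygenase 1, which frees iron from heme, varied with the replicate number. It had 322, 117 and 536 tags in the IL-11- libraries and 539, 223 and 1003 in the IL-11+ libraries. The groups overlapped, yet within replicates 1, 2 and 3 the ratio was 1.86, 2.05 and 2.17. The log2 fold change of 1.03 (SE 0.406) was not called (adjusted p = 0.101, edgeR quasi-likelihood test, Benjamini-Hochberg). With replicate number as a block it was called higher (adjusted p = 1.81e-07), and over its alternatives adjusted p ranged from 1.81e-07 to 0.505. Leaving out single libraries moved the log2 fold change between 0.48, without IL-11+ replicate 3, and 1.47, without IL-11- replicate 3. It was called without IL-11- replicate 3 (adjusted p = 0.033) and without IL-11+ replicate 2 (adjusted p = 0.0158), both by edgeR with Benjamini-Hochberg adjustment. Erythroid markers, led by *Hbb-bs*, summed to 92.6, 0.942 and 306 normalized CPM in the IL-11- libraries and to 23.3, 7.11 and 21.0 in the IL-11+ libraries. Their part in the level of *Hmox1* was not tested.

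Of 25 tested regulators of ferroptosis, 2 were called higher (8%) and 3 lower (12%), beside 3.44% and 6.37% of all tested genes. *Ptgs2*, the cyclooxygenase that takes up free arachidonic acid, had 487, 629 and 853 tags in the IL-11- libraries and 2492, 2154 and 2871 in the IL-11+ libraries. *Hif1a*, a factor of the hypoxia response, had 122, 178 and 188 tags against 384, 340 and 287. In both genes all IL-11+ libraries were the higher ones, with log2 fold changes of 2.10 (SE 0.191) and 1.22 (SE 0.19). *Atf3*, a stress-response factor, had 1152, 1487 and 780 tags against 219, 303 and 155, and *Cdkn1a*, which encodes the cell cycle inhibitor p21, had 601, 542 and 588 against 196, 194 and 259. Both were lower in all IL-11+ libraries, with log2 fold changes of -2.19 (SE 0.27) and -1.26 (SE 0.167). *Prkaa2*, a catalytic subunit of AMPK, had 15, 12 and 14 tags against 3, 2 and 0 and was called lower, having passed the filter only through the IL-11- libraries.

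**Figure D3:**
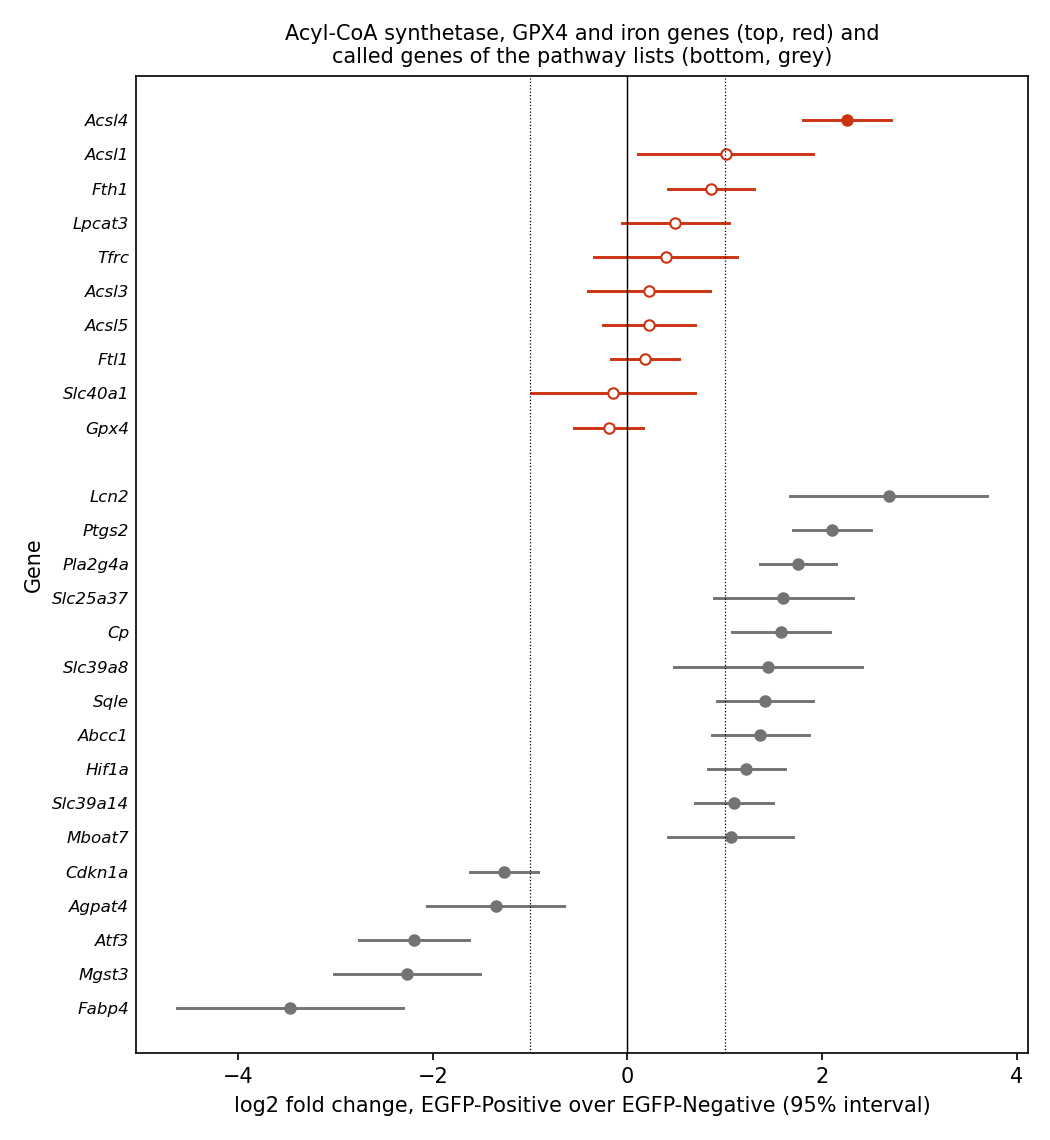
Log2 fold changes of IL-11+ over IL-11- fibroblasts with 95% intervals, in red for the 10 genes and in grey for the called genes of the 7 lists, with filled points for called genes, open points for genes not called, and dotted lines at 2-fold. *Acsl4* is the single filled red point, at 2.26. *Cd36*, *Fabp5* and *Prkaa2*, with at most 3 tags in each IL-11+ library, are not drawn.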

How the data were processed

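The authors trimmed reads with cutadapt 1.18, mapped them to RefSeq RNA (mm10) in one orientation with Bowtie2 2.2.5 and counted tags per gene. The deposited values are these counts, one value per gene symbol, without normalization. How tags that map to several genes were treated is not given in the sources used here, nor are molecular identifiers.

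The 9334 genes that reached 10 tags in 3 or more of the 6 libraries were tested in R 4.3.3 with edgeR 4.0.16 (TMM, glmQLFit and glmQLFTest, Benjamini-Hochberg over all tested genes). SE is the log2 fold change divided by the square root of F, and 95% intervals use the t distribution of the same fit. A floor of 3 tags stands at 2.56 to 2.93 CPM of the library totals. The p-values measure spread between 3 libraries per group. According to the methods 3 mice were used, and libraries of one number deviated together from their group means (r = 0.231, 0.185 and 0.265 over 5063 genes), so the replicate numbers were taken to pair the libraries.

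Shares were compared by exact permutation over libraries. Sites and tag sharing come from GENCODE release M21 on GRCm38. Likeness of patterns used log2 CPM with 1 tag added. Members and lists were chosen with earlier results of these data known. Named genes are the 10 members, called genes of the lists, the gene with the most tags in a list without calls, nearest patterns, markers and *Il11*. *Hmox1*, *Nox4*, *Slc7a11*, *Aifm2* and *Gm16867* were chosen after their values were seen. Alternatives were DESeq2 1.42.0, RLE or library size alone for scaling, looser and stricter filters, the replicate block, each library left out, and the adjusted p without a fold threshold. The fit was tested on simulated data. Some marker genes are not reported here.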

Additional observations from a re-analysis of the deposited data

How the results depend on the processing

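*Acsl4* was called higher under all 12 alternatives (log2 fold change 1.96 to 2.44, adjusted p from 3.58e-31 to 5.89e-05 by edgeR or DESeq2). Without a fold threshold, 638 genes were higher in place of 321, 2 of the 10 genes in place of 1 (*Acsl4* and *Fth1*), and 19 genes of the lists in place of 11. With at least 10 tags in all 6 libraries, where fewer genes are tested, 256 genes were lower in place of 595 and 3 genes of the lists in place of 8. Leaving out 1 library each gave 341 to 579 lower genes, fewest without IL-11- replicates 1 (341) and 2 (355), and 3 to 11 lower genes of the lists, with 3, 4 and 4 without IL-11- replicates 1, 2 and 3. The filter was applied anew to the libraries kept. Genes that passed only through the IL-11- libraries were thus not tested without any of these, so such counts are no measure of dependence on single replicates. The log2 fold change of *Slc40a1* ran from -0.48 to 0.42 over the libraries left out, reversed without IL-11- replicate 1 and, at 0.02, without IL-11+ replicate 2. In the sum of *Acsl3* and *Acsl4* only, the share of *Acsl4* differed by 6.89 percentage points in place of 18.7.

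With the replicate block, 337 genes were higher and 648 lower, *Acsl4* had a log2 fold change of 2.21, and 1 of the 10 genes was called. Beside *Hmox1* and *Nox4*, the block changed no call of a named gene. Within replicate numbers the shares differed by 18.7 and -9.97 percentage points (exact sign-flip permutation p = 0.25, the smallest possible with 3 pairs). Without a filter on low genes, *Hmox1* was also called (adjusted p = 2.09e-07 by edgeR, against 1.81e-07 to 0.505 over its alternatives), and the cause was not tested. Scaling by library size only shifted the median log2 fold change of all genes to -0.095. At 6 to 38 tags per library, *Acsl1*, *Acsl3*, *Lpcat3*, *Tfrc* and *Slc40a1* had SEs from 0.261 to 0.427, against 0.166 to 0.226 for the other 5 genes.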
